A study of Mus musculus with 32 samples.

Results

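The response of whole-culture RNA to depolarization by KCl was measured in mouse primary cortical neurons that carried TurboID-PSD95, a biotin ligase fused to the postsynaptic scaffold protein PSD95. The members are the 8 input libraries of these cultures among the 32 libraries of the series, chosen by their titles: 4 from KCl-treated cultures (DEP_PSD95_in) and 4 from resting cultures (REST_PSD95_in), paired by replicate number. The series used proximity labelling followed by crosslinking and streptavidin pulldown (PL-CLIP) to isolate RNA bound to proteins near the ligase. An input is the 15% of the lysate set aside before the pulldown, so it covers RNA of the whole culture and not only the dendritic fraction. The labels describe the inputs as holding all RNA that is bound to protein. The other 24 libraries are the pulldowns and the inputs and pulldowns of cultures with Pan-TurboID, the ligase without the PSD95 fusion.

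All cultures were of cortical neurons from CD-1 mouse embryos and expressed the ligase from a lentivirus under doxycycline control. The PSD95 coding sequence in the construct is that of the rat and carries its UTRs. Resting and KCl-treated cultures alike received cycloheximide, which stalls translation, for 2 minutes before 30 minutes of biotin, and both were crosslinked with UV light at 400 and then 200 mJ per cm2. For depolarization the neurons were first silenced for 2 hours with tetrodotoxin, which blocks voltage-gated sodium channels, and DL-AP5, which blocks NMDA-type glutamate receptors. KCl at 55 mM followed for 1 hour, and the cultures then rested for 30 minutes in fresh medium that again held both silencers, by the study's methods. By the same methods the biotin labelling of KCl-treated cultures took place in this medium. The labels and methods describe the silencers for depolarization only. Where resting cultures had none, the effects of KCl and of the silencers cannot be told apart.

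Raised extracellular potassium depolarizes the neuronal membrane and opens voltage-gated calcium channels. Calcium then drives kinases and phosphatases that act on transcription factors already in the nucleus, and a first wave of immediate early genes is transcribed within minutes without new protein synthesis. Some of these genes encode transcription factors that control a later wave, whose products include secreted growth factors and proteins of the synapse. The level of an RNA after stimulation also depends on its decay, and a stable transcript can fall only slowly even when its transcription stops.

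Transcripts are given by their UCSC identifiers. The deposited files do not pair these with gene names, and 0 of them matched the name tables that were used here. No gene list or cell type marker could therefore be read, and the neuronal identity of the cultures was not checked against markers. In bulk RNA a change in the number of cells of a type and a change of RNA per cell cannot be told apart. The p-values of the main fit rest on the spread between biological replicates pooled over 16 inputs, 8 of them from Pan cultures.

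The 8 libraries held 4439271 to 11962212 estimated reads over 51884 transcripts. A single transcript of 3881 nt, uc009sgd.1, took 8.77 to 28.0% of the reads in the resting libraries and 9.30 to 27.4% in KCl replicates 1, 2 and 4, but 78.9% in KCl replicate 3. That library had about 1858000 reads outside this transcript, against 3194000 to 10850000 in the other 7, and 13883 transcripts with at least 10 reads, against 18688 to 26607. The descriptions of the replicate 2 libraries name the opposite state from their titles and treatment fields, and the titles were followed. Results are therefore also given without replicate 2 and with its states taken from the descriptions. For all 4 replicates the KCl library had the larger median gap between length and effective length, a quantity that grows with fragment length (157, 157, 182 and 177 nt with KCl against 155, 153, 133 and 163 nt at rest).

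KCl changed the level of many transcripts in both directions. Among 27887 tested transcripts, 252 rose and 304 fell (limma, adjusted p under 0.05), which is 0.904% and 1.09% of those tested and 1.99% together. The median fitted log2 change was 1.54 for the rising transcripts and -0.66 for the falling ones, and 0.02 for all tested transcripts. The sizes of the largest rises depend on the prior count, since 30 of the rising transcripts had 0 reads in all 4 resting libraries and 83 in at least 1, while 5 and 11 of the falling ones had 0 reads in all or at least 1 of the KCl libraries. Of the rising transcripts 160 changed by at least 1 on the log2 scale, 105 by at least 2 and 66 by at least 4. Of the falling transcripts 66 changed by at least 1, 16 by at least 2 and 8 by at least 4. The number of calls depended on the fit. The quasi-likelihood test of edgeR called 8 rising and 7 falling, DESeq2 called 567 and 471, limma on the 8 PSD95 inputs alone called 3 and 1, and limma without the replicate block called 109 and 69. Of these, 8 and 7, 206 and 222, 3 and 0, and 105 and 67 were among the 252 and 304. When replicate 1 was left out limma called 5 rising and 3 falling, and for replicates 2, 3 and 4 the counts were 31 and 25, 77 and 186, and 43 and 87. Among the 252 and 304 were 5 and 2, 29 and 24, 63 and 158, and 32 and 73 of these. Limma called 0 of either with the replicate 2 states from the descriptions (2607 at an unadjusted p under 0.05, against 3866 with the titles).

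The rising transcript with the smallest p was uc009gzx.2, of 5226 nt. Its normalised level at rest was 26.1, 31.8, 21.6 and 27.3 CPM, or counts for each 1000000 of the scaled library total, in replicates 1 to 4, and after KCl it was 83.1, 89.9, 78.2 and 99.6 CPM. The groups did not overlap, and every KCl library held at least 78.2 CPM against at most 31.8 CPM at rest. Among all tested transcripts the KCl libraries lay all above the resting ones for 3.28% and all below for 2.36%. The named transcripts were chosen from these same libraries, partly by their direction in 4 of 4 replicates. Their lack of overlap is therefore a description. The mean went from 26.7 ± 4.20 to 87.7 ± 9.27 CPM (SD, n = 4 each), a log2 change of 1.74 ± 0.12 (SE, limma, adjusted p = 7.07e-05). Per length, its mean level went from 4.36 to 13.6 TPM, a unit that corrects for transcript length. The call was lost with the replicate 2 states from the descriptions, where the log2 change was 1.41 (limma, adjusted p = 0.352).

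Among the rising transcripts that passed the naming rule, uc029wpp.2 of 6723 nt had the largest change. At rest it was near the limit of detection, with 9, 15, 0 and 12 estimated reads in the 4 replicates, or 0.619, 1.83, 0 and 0.947 CPM. After KCl it had 310, 348, 33 and 327 reads, or 16.5, 28.7, 14.8 and 21.6 CPM. The groups did not overlap, and the KCl library with the fewest reads was replicate 3, the one with the fewest reads outside uc009sgd.1. The log2 change was 5.08 ± 0.61 (SE, limma, adjusted p = 0.00174). It lay between 3.85 and 5.54 over the alternatives and kept its direction in all of them. The call was lost in edgeR (adjusted p = 0.0503), in limma on the 8 PSD95 inputs alone (adjusted p = 0.109), without replicate 1 (adjusted p = 0.149) and with the described states of replicate 2 (adjusted p = 0.379).

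The falling transcript with the smallest p was uc008thw.1, of 3354 nt. At rest it stood at 246.1, 262.6, 189.2 and 225.9 CPM, and after KCl at 126.1, 130.2, 120.5 and 134.4 CPM. The 4 KCl libraries were close to each other and all lay below the lowest resting library. The mean fell from 230.9 ± 31.6 to 127.8 ± 5.95 CPM (SD, n = 4 each), a log2 change of -0.86 ± 0.06 (SE, limma, adjusted p = 7.07e-05). The call was lost in limma on the 8 PSD95 inputs alone (adjusted p = 0.0948), without replicate 1 (adjusted p = 0.0549) and with the described states of replicate 2 (adjusted p = 0.416).

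The largest fall under the naming rule was that of uc007mjq.2, of 3702 nt, and it was the least stable of the 4. It had 277, 69, 130 and 238 estimated reads at rest and 11, 10, 0 and 0 after KCl. In CPM these were 19.0, 8.404, 25.3 and 18.8 at rest and 0.584, 0.826, 0 and 0 after KCl, with no overlap. The log2 change was -6.20 ± 1.36 (SE, limma, adjusted p = 0.0388). The call was lost in 11 of 16 alternatives, among them without each replicate in turn (limma, adjusted p = 0.718, 0.109, 0.196 and 0.128 without replicates 1 to 4) and in edgeR (adjusted p = 0.607). In Pan inputs its level scattered between 0 and 19.6 CPM at rest and between 0.483 and 15.3 CPM after KCl, with a log2 change of 0.35 ± 0.63 (limma, adjusted p = 0.834). All 4 named transcripts have reads that were divided with other transcripts by estimation.

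**Figure D1:**
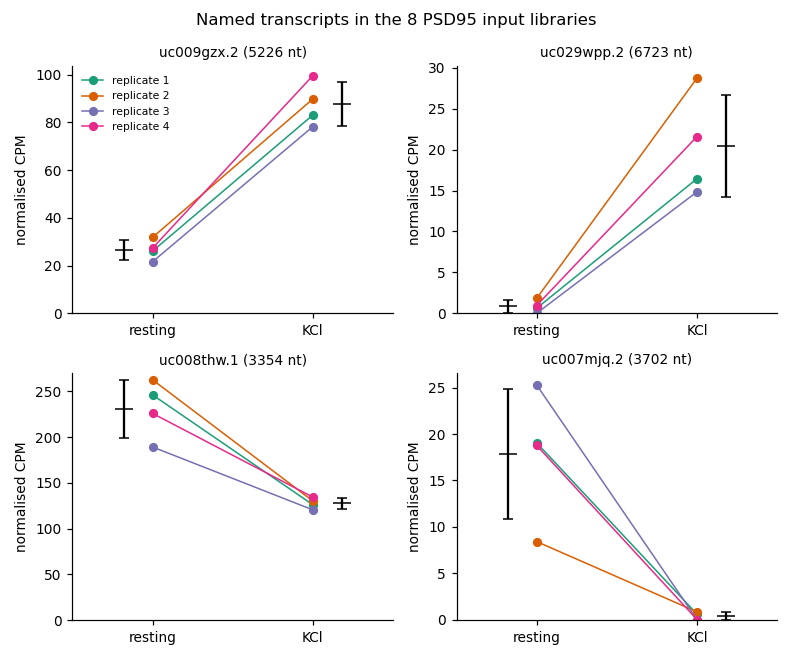
Normalised CPM (linear y axis) of the 4 named transcripts in the 8 PSD95 input libraries, resting on the left and KCl on the right of each panel; coloured lines join the libraries of 1 replicate, and black marks give the mean and SD. The resting and KCl libraries, from which these transcripts were chosen, do not overlap in any panel: uc009gzx.2 goes from a mean of 26.7 to 87.7 and uc008thw.1 from 230.9 to 127.8.

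Many reads fit several transcripts of a gene and were divided among them by the estimation, which gives fractional counts. Among all transcripts, 8856 had whole counts in every library, within 0.001 of a read, and 2973 of these were tested. Their spread between replicates was far lower than that of the 24914 tested transcripts with divided counts: the median biological coefficient of variation was 0.264 against 1.06 (edgeR), and the median SE of the log2 change 0.274 against 0.773 (limma). In the fit of all transcripts 5.11% of the whole-count transcripts were called against 1.62% of those with divided counts. The whole-count transcripts were also shorter, with a median of 2077 against 3041 nt, and more abundant, with a median level of 3.23 against 1.53 on the log2 CPM scale, and the part of length and abundance in that gap was not tested.

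With whole-count transcripts fitted on their own, a step chosen after the data had been seen, KCl raised 275 and lowered 191 (limma, adjusted p under 0.05), which is 9.25% and 6.42% of the 2973 and 15.7% together. Of the 92 rising and 60 falling whole-count transcripts called in the fit of all transcripts, 91 and 59 were called here too. The test of edgeR called 124 rising and 84 falling, DESeq2 196 and 106, and limma on the 8 PSD95 inputs alone 180 and 131. Of these, 123 and 84, 184 and 106, and 164 and 127 were among the 275 and 191. Leaving out replicate 3, whose KCl library was dominated by 1 transcript, gave 266 rising and 243 falling, with 209 and 164 among the 275 and 191. Leaving out replicate 4 gave 232 and 170, with 171 and 120 among them. Without replicate 2 the counts were 204 and 110, with 183 and 105 among them. Without replicate 1 they were 46 and 19, with 45 and 19 among them. With the replicate 2 states from the descriptions 150 rose and 76 fell, with 134 and 67 among the 275 and 191.

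The largest fitted changes were rises of transcripts that were rare at rest. The 275 rising whole-count transcripts had a median level of 0.655 TPM at rest and 3.00 TPM after KCl, and the 191 falling ones 9.03 and 5.11 TPM. These TPM values are not TMM-scaled, and uc009sgd.1 took 78.9% of the reads in KCl replicate 3. Over all tested whole-count transcripts the medians were 4.61 TPM at rest and 4.29 TPM after KCl, while the median fitted log2 change was 0.01. Of the rising ones 30 changed by 4 or more on the log2 scale and 90 by 2 to 4, with median resting levels of 0.0134 and 0.121 TPM that became 0.695 and 0.71 TPM after KCl. At the other end, 47 rising transcripts changed by less than 0.5, with a median of 31.1 TPM at rest and 38.1 TPM after KCl. No falling whole-count transcript changed by 4 or more, 4 changed by 2 to 4, 43 by 1 to 2, 85 by 0.5 to 1 and 59 by less than 0.5. The largest called fall was -2.19 and the largest called rise 5.81 on the log2 scale.

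Reads at rest were few for many of the rising transcripts. Of the 275, 14 had 0 reads in all 4 resting libraries, 37 had 3 or fewer reads in these libraries together, and 131 had at least 10 reads in each of them. In at least 1 resting library 104 of them had 0 reads, and 143 had at least 10 reads in each KCl library. For the 14 the fitted change is no measured fold. For the others with few or no resting reads its size also depends on the prior count. Of the 191 falling transcripts none had 0 reads in all 4 KCl libraries and 2 had 0 in at least 1. In each KCl library 167 had at least 10 reads, and 189 had at least 10 in each resting library. Under a mean of 0 on the log2 CPM scale, 20.2% of 406 whole-count transcripts rose and 0.246% fell, while at 6 or more 15.1% of 284 rose and 15.5% fell. At such low levels a transcript passed the count filter mostly through the group in which it was high, so the shares at the low end are given as a description. With a mean of at least 5 CPM required, 162 rose and 139 fell among 1919.

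**Figure D2:**
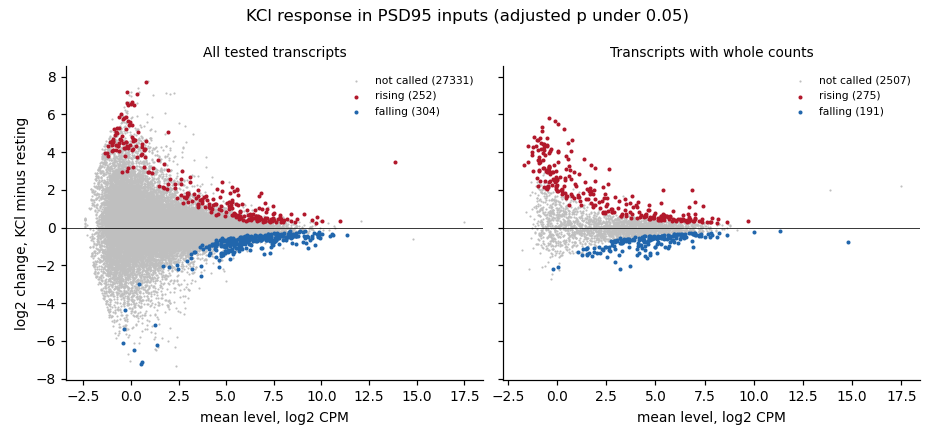
Log2 change in PSD95 inputs (KCl minus resting, y axis) against mean level (log2 CPM, x axis), with each point 1 transcript, for all 27887 tested transcripts on the left and the 2973 with whole counts on the right; red points rose and blue points fell at an adjusted p under 0.05 in limma. In both panels the largest rises lie at low levels, and on the right no called fall goes below -2.19.

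Most called transcripts moved the same way in every replicate. In the whole-count set 208 of 275 rising transcripts rose in 4 of 4 replicates (75.6%), against 14.4% of all those tested. Of the 191 falling ones 151 fell in 4 of 4 (79.1%). The share of all those tested that fell in 4 of 4 is not given. These shares describe the same libraries that chose the transcripts. The median log2 ratio of the rising set was 1.33, 1.19, 1.07 and 1.53 in replicates 1 to 4, and that of the falling set -0.72, -0.67, -0.46 and -0.61 (all whole-count transcripts 0.03, 0.05, -0.00 and 0.00). The titles' states of replicate 2 entered the choice of both sets. Replicate 3 had the smallest medians of the 4. In CPM, all 4 KCl libraries were above all 4 resting libraries for 206 whole-count transcripts (6.93%) and below them for 128 (4.31%), and over all tested transcripts for 916 (3.28%) and 658 (2.36%).

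A replicate that had no part in choosing the transcripts gives a separate reading. For each replicate in turn, the 100 transcripts with the smallest p in each direction were taken from the fit of all transcripts in the other 3 replicates. The rising transcripts had a median log2 ratio of 0.93, 0.86, 0.57 and 0.62 in held-out replicates 1 to 4, with 82, 85, 78 and 80% of them rising there, against 50.9, 50.8, 40.5 and 49.6% of all tested transcripts. The falling transcripts had medians of -0.75, -0.47, -0.15 and -0.42, with 93, 85, 65 and 88% falling, against 44.8, 40.6, 49.4 and 47.3%. All 8 medians had the sign of the list. The lowest share, 65%, was that of the falling transcripts in replicate 3, whose KCl library was the shallowest outside uc009sgd.1. In held-out replicate 2 both shares were 85% under the states of its titles.

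**Figure D3:**
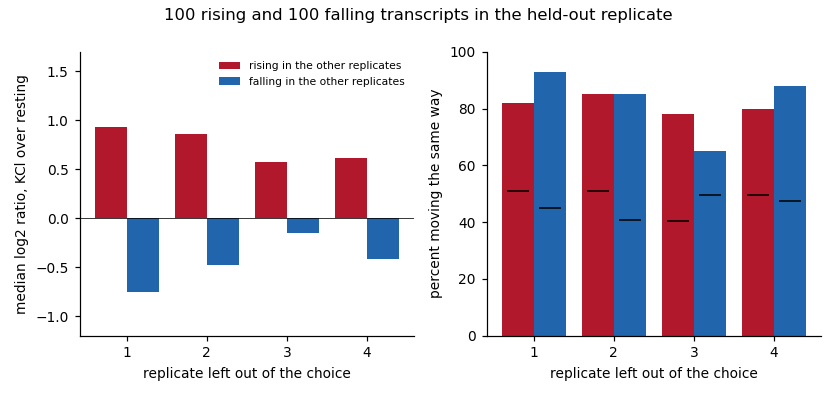
The 100 rising (red) and 100 falling (blue) transcripts with the smallest p in 3 replicates, read in the replicate left out (x axis): median log2 ratio of KCl over resting on the left, and percent moving the same way on the right, where black marks give the same percent over all tested transcripts. All bars on the left have the sign of their list, and the shares on the right run from 65 to 93%.

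Falling transcripts were long. Among all tested transcripts, whose median length was 2932 nt, the 304 falling ones had a median of 4773.5 nt (quartiles 3373 and 7101.5 nt), and the 252 rising ones 3057.5 nt (1919 and 4905 nt). The share that fell was 0.322% of those under 1000 nt, 0.327% from 1000 to under 2000 nt, 0.699% from 2000 to under 4000 nt, 1.98% from 4000 to under 8000 nt and 5.03% at 8000 nt or more. The share that rose was 0.644, 0.947, 0.782, 0.996 and 1.86% in the same classes. In whole-count transcripts both shares were higher in each longer class, with 0.674, 3.51, 7.42, 15.6 and 28.6% falling and 5.39, 9.48, 9.51, 11.9 and 14.3% rising from the shortest to the longest class. The longest of these classes held 35 transcripts. Precision moved with length, since the median SE of the log2 change was 0.707 in the shortest class and 0.396 in the longest (0.280 and 0.158 for whole counts). The parts of precision and of level in the shares by length were not tested.

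**Figure D4:**
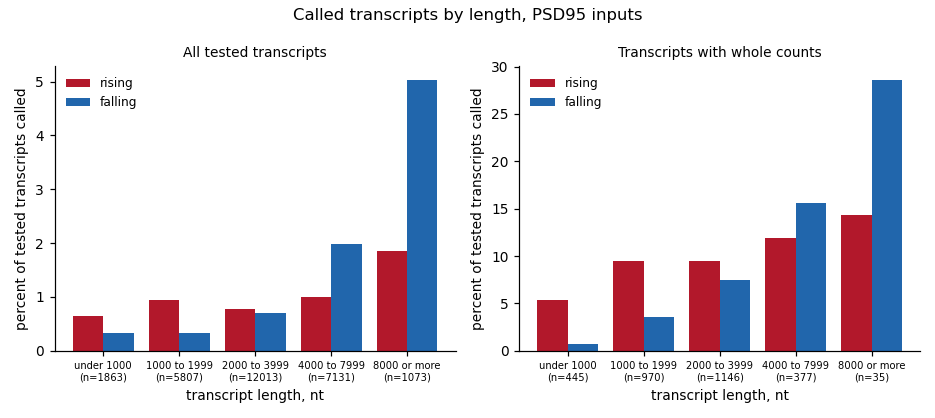
Percent of tested transcripts that rose (red) or fell (blue) with KCl in PSD95 inputs, by transcript length in nt on the x axis, with the number tested under each class, for all transcripts on the left and whole-count transcripts on the right (limma, adjusted p under 0.05; the y axes differ). The falling share rises from 0.322 to 5.03% on the left and from 0.674 to 28.6% on the right.

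The shift of whole length classes in PSD95 inputs was at most 0.22 in size on average. It was read from 6566 transcripts with a mean of at least 200 reads, as the median log2 ratio of a class minus the median of the set in each replicate. The 584 transcripts of 8000 nt or more shifted by -0.09, 0.02, -0.20 and -0.07 in replicates 1 to 4, a mean of -0.08 ± 0.09 (SD, n = 4, exact two-sided sign-flip permutation test, p = 0.25). The 310 transcripts under 1000 nt shifted by 0.22, 0.01, 0.02 and -0.05, a mean of 0.05 ± 0.12 (exact permutation p = 0.625), and without replicate 1 the mean was -0.01. Those from 1000 to under 2000 nt were shifted upward in 4 of 4 replicates, by 0.10 ± 0.05, and those from 4000 to under 8000 nt downward in 4 of 4, by -0.04 ± 0.03 (exact permutation p = 0.125 for both). The smallest p that 4 pairs allow is 0.125, so this test could not pass 0.05 for any class. For the 22 whole-count transcripts of 8000 nt or more the mean shift was -0.22 ± 0.09, downward in 4 of 4 (exact permutation p = 0.125). Replicate 3 had both the largest downward shift of the longest class and the largest gap in the fragment length measure between KCl and rest (182 against 133 nt). In Pan inputs the longest class shifted by -0.26, -0.26, -0.21 and -0.18 in replicates 1 to 4, a mean of -0.23 ± 0.04 (SD, n = 4), and the class under 1000 nt by 0.26, 0.21, 0.27 and 0.01, a mean of 0.19 ± 0.12. The fragment length measure of Pan replicates 1 to 4 was 158.0, 153.5, 166.0 and 198.2 nt with KCl. At rest it was 158.3, 153.2, 151.5 and 154.5 nt. Pan replicate 4 had the largest gap and the smallest downward shift of the longest class. The part of fragment length in the shifts was not tested.

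The Pan cultures gave a second set of libraries under the same treatment. In the KCl libraries of Pan replicates 3 and 4, uc009sgd.1 took 59.0 and 84.8% of the reads. In Pan inputs 583 transcripts rose and 284 fell (limma, 2.09% and 1.02%). Of the transcripts that rose in PSD95 inputs, 142 also rose in Pan inputs, which is 56.3% of the PSD95 list and 24.4% of the Pan list. Of those that fell, 91 also fell, which is 29.9% of the PSD95 list and 32% of the Pan list. With Pan, 94.8% of the 252 rising transcripts had a positive log2 change, against 48.4% of all tested transcripts, and their median was 1.15. The 304 falling ones had a negative change in 85.2% of cases and a median of -0.32, against a median of -0.03 for all tested transcripts. The share of all tested transcripts with a negative change is not given. These shared counts fell to 2 and 1 (rising and falling) when replicate 1 was left out, to 25 and 15 for replicate 2, 25 and 12 for replicate 3, and 26 and 23 for replicate 4. They were 6 and 6 in edgeR, 24 and 16 without the replicate block, 27 and 7 after removing the 3 inputs with more than 50% of their reads in uc009sgd.1, and 0 of either with the described states of replicate 2, where no transcript was called in PSD95 inputs. A call in the opposite direction was made for 1 of the rising and 5 of the falling transcripts. In the whole-count fit, where 372 rose and 242 fell with Pan (12.5% and 8.14%), the shared calls were 177 rising (64.4% of the PSD95 list and 47.6% of the Pan list) and 88 falling (46.1% and 36.4%). Without those 3 inputs 103 rose and 34 fell with Pan, and 67 and 23 were shared. Leaving out replicate 1 gave 46 and 26 with Pan and 25 and 11 shared, and for replicates 2, 3 and 4 the shared counts were 144 and 58, 125 and 65, and 94 and 54. Without the replicate block 109 and 43 were called with Pan and 73 and 24 shared. The PSD95 and Pan cultures share no library, but the same replicate numbers were processed together and both contrasts came from the same fit.

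**Figure D5:**
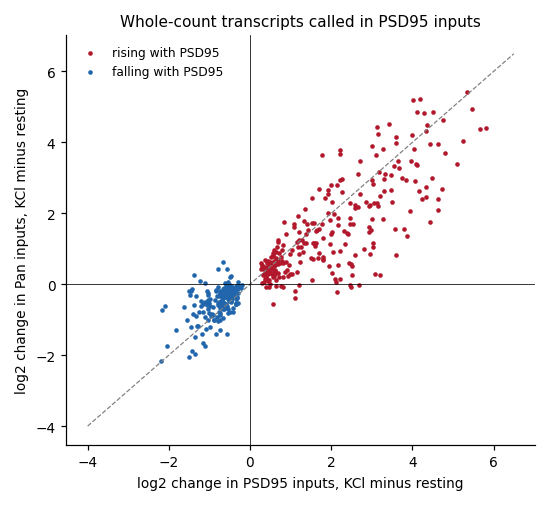
Log2 change with KCl in Pan inputs (y axis) against that in PSD95 inputs (x axis) for the 275 rising (red) and 191 falling (blue) whole-count transcripts called in PSD95 inputs; each point is 1 transcript and the dashed line marks equal change. Of the rising transcripts 262 (95.3%) lie above 0 on the y axis, and 50.5% of all tested whole-count transcripts had a positive change in Pan inputs. Of the falling ones 180 (94.2%) lie below it, and the share of all tested ones below 0 is not given.

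Lists chosen by the KCl contrast of Pan inputs were also read in the PSD95 libraries. The fit that gave these lists also held the PSD95 inputs, which entered its filter, scaling, quality weights, replicate terms and spread. The titles' states of replicate 2 entered that fit too, so the PSD95 libraries do not give an independent reading of the lists. The 372 whole-count transcripts that rose with Pan had a median log2 ratio of 0.45, 0.32, 0.60 and 0.76 in PSD95 replicates 1 to 4, and 77.2, 67.5, 85.2 and 90.9% of them rose there, against 48.2 to 52.7% of all whole-count transcripts. Their mean shift from the median of all was 0.51 ± 0.22 (SD, n = 4, upward in 4 of 4, exact permutation p = 0.125). The 242 that fell with Pan had medians of -0.36, -0.23, -0.48 and -0.40, and 78.5, 63.2, 87.6 and 88.4% of them fell there. Of all whole-count transcripts 47.5, 46.7, 50.4 and 50.0% fell in the same replicates. Their mean shift was -0.39 ± 0.08 (downward in 4 of 4, exact permutation p = 0.125). Replicate 2 had the smallest shift in both lists, in the direction of its titles. Over all tested transcripts the lists of 583 and 284 shifted by 0.39 ± 0.23 and -0.42 ± 0.14 (exact permutation p = 0.125 for both).

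A test of the difference between the responses of PSD95 and Pan inputs called 14 transcripts of 27887 (limma, 0.0502%), 1 with a higher response in PSD95 inputs (0.00359%) and 13 with a lower one (0.0466%). The 13 had a median log2 change of -0.31 in PSD95 inputs, between -7.21 and 0.11, and of 0.50 in Pan inputs, between 0.07 and 2.58. When replicates 1 to 4 were left out in turn, 0, 0, 2 and 6 transcripts were called. edgeR called 0, with 1059 at an unadjusted p under 0.05, and DESeq2 called 562. In the whole-count fit limma called 1 of 2973 (0.0336%), a transcript with at most 1 read in the PSD95 inputs of replicates 3 and 4. This count depended on the libraries: it was 0 without replicate 1 (54 at an unadjusted p under 0.05), 1 without replicate 2, 46 without replicate 3 (8 with a higher and 38 with a lower response in PSD95 inputs, smallest adjusted p = 0.000517) and 25 without replicate 4 (9 and 16, smallest adjusted p = 9e-06). Without quality weights it was 8, and in edgeR and DESeq2 it was 0 (201 and 235 at an unadjusted p under 0.05). Of the named transcripts, uc009gzx.2 differed by 0.24 (log2 1.74 in PSD95 inputs against 1.503 in Pan inputs, limma, adjusted p = 0.704) and uc008thw.1 by 0.07 (-0.86 against -0.93, adjusted p = 0.859). For uc029wpp.2 the difference was 1.09 (5.08 against 3.98, adjusted p = 0.665) and for uc007mjq.2 it was -6.55 (-6.20 against 0.35, adjusted p = 0.163).

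Most transcripts called in the inputs moved the same way in the pulldowns from the same PSD95 lysates. In these pulldowns 1266 transcripts rose and 1324 fell among 32553 tested (limma, 3.89% and 4.07%). In replicate 3 uc009sgd.1 took 73.9% of the pulldown reads at rest and 70.2% after KCl. About 768000 and 2019000 reads lay outside it. In the resting pulldown of replicate 4 it took 46.6%. Counts without a replicate or with the described states of replicate 2 are not given for the pulldowns. Of the 252 transcripts that rose in the inputs, 250 were tested in the pulldowns and 151 rose there too (60.4%), with a median log2 change of 1.07. Of the 304 that fell in the inputs, 242 fell in the pulldowns (79.6%), with a median of -0.76. None was called in the opposite direction. In the whole-count fits, where 16.4% of 3687 rose and 15.6% fell in the pulldowns, these counts were 207 of 275 rising (75.3%) and 161 of 191 falling (84.3%). In the pulldowns uc009gzx.2 changed by 1.18 ± 0.16, uc029wpp.2 by 4.07 ± 0.41 and uc008thw.1 by -1.11 ± 0.13 on the log2 scale (SE, limma, adjusted p = 0.00136, 0.000281 and 0.000497). For uc007mjq.2 the value was 1.55 ± 2.63 (limma, adjusted p = 0.779). An input and its pulldown come from 1 culture and are not independent replicates of the KCl response.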

How the data were processed

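RNA from inputs and pulldowns was extracted with TRIzol, treated with DNase, depleted of ribosomal RNA and made into stranded libraries (TruSeq). The authors quantified the reads per transcript with Salmon and deposited, for each library, estimated counts and TPM values, with the length and effective length of each UCSC transcript on mm10. Salmon's version and options are not given in the sources used here. DESeq and limma also stand in the submitters' processing notes.

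Expected counts as deposited were rounded to whole numbers. Transcripts were filtered with filterByExpr, scaled with TMM (edgeR 4.0.16) and tested with voomWithQualityWeights of limma 3.58.1 in R 4.3.3, with group and replicate as terms, on the 16 inputs (9 residual degrees of freedom). Adjusted p-values are Benjamini-Hochberg values over all tested transcripts, at 0.05. edgeR's quasi-likelihood test and DESeq2 1.42.0 were alternatives. CPM values use TMM-scaled totals, and log2 ratios per replicate a prior count of 2. The authors' TPM values were averaged per group, without TMM scaling, for levels per length only. The TMM factor of KCl replicate 3 was 0.253. Pulldowns were fitted apart.

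The replicate block rests on the study's methods, which state that samples of a replicate were processed together. In PSD95 inputs the deviations of same-numbered libraries correlated at 0.261, 0.0844, 0.0973 and 0.252, against a mean of -0.0526 for different numbers, over 6566 transcripts.

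Named transcripts were called, with a mean level of 1 or more on the log2 CPM scale, a log2 change of at least 0.5 in size and 1 direction in 4 of 4 replicates (114 rising and 167 falling). In each direction the smallest p and the largest change were named, with no more since the identifiers carry no gene name. The libraries, the naming rule and the alternatives were chosen with earlier results of these data known. No sequence is printed, because no table used here pairs the identifiers with sequences. Within each of the 4 input groups no 2 libraries were identical, and every pair differed by more than counting noise (chi-square per degree of freedom of 51.5 or more).

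The simulation gave each transcript the same spread in all libraries. Only the KCl PSD95 inputs were changed, so Pan had no response. In the real fit the quality weights of the libraries ran from 0.349 to 2.24, so the simulated setting was the simpler one. On simulated data for the contrast of KCl against rest in PSD95 inputs, limma found 1 of the 100 transcripts with a 2-fold change and 14 of the 100 with a 4-fold change among 23871, with 5 false calls. DESeq2 recovered 7 and 29, with 180 false calls, and edgeR 0 and 11, with 0. Among 2844 simulated whole-count transcripts limma recovered 50 and 78, with 12 false calls.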

Additional observations from a re-analysis of the deposited data

Results flagged for a closer look

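The KCl response differed between PSD95 and Pan inputs, by the test of the difference itself, for 14 transcripts (limma, adjusted p under 0.05). Of these, 13 had a lower response with PSD95, with differences from -9.80 to -0.45 on the log2 scale, 7 were called with KCl in PSD95 inputs and 11 in Pan inputs, and 1 had whole counts. The smallest adjusted p was 3.11e-05. The remaining transcript had a log2 change of 1.17 in PSD95 inputs and -3.29 in Pan inputs, a difference of 4.46.

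In the fit of whole-count transcripts the test of the difference called 1 transcript, of 630 nt, whose log2 change was 1.104 ± 0.17 in PSD95 inputs and -0.19 in Pan inputs (limma, adjusted p of the difference 0.0282, and 0.294 in the fit of all transcripts). Its level split by replicate and not by state. In PSD95 inputs it stood at 538.7 and 984.3 CPM at rest and 1279 and 1886 CPM after KCl in replicates 1 and 2, and had 0 or 1 reads in the 4 libraries of replicates 3 and 4. In Pan inputs it stood at 240.0 and 311.4 CPM at rest and 184.9 and 502.0 CPM after KCl in replicates 1 and 2, and had 0 to 13 reads in replicates 3 and 4. The difference between the responses is therefore carried by 2 of the 4 replicates. Without replicate 3 this test called 46 whole-count transcripts and without replicate 4 it called 25, the 630 nt transcript among them both times.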

How the results depend on the processing

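Counts moved by more than 1.5 times under several alternatives (rising and falling in PSD95 inputs, then transcripts whose response differed from that with Pan; main values 252, 304 and 14). They were 8, 7 and 0 in edgeR and 567, 471 and 562 in DESeq2. With no filter on low counts they were 503, 555 and 314 (the median of all 44013 log2 changes was then 0.25). With only the 8 PSD95 inputs 3 rose and 1 fell, and with all 32 libraries in 1 model 491 rose. They were 0, 0 and 0 with the replicate 2 states from the descriptions (limma, with 1201, 1406 and 1564 at an unadjusted p under 0.05). Without the 3 input libraries that had over 50% of reads in 1 transcript, a setting chosen after seeing the data, 135 rose and 182 fell. RLE size factors gave 39 differing transcripts, no quality weights 58, and a mean of at least 5 CPM 1. Only transcripts with whole counts gave 191 falling and 1 differing. Leaving out 1 replicate gave 5 to 77 rising, 3 to 186 falling and 0 to 6 differing.

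Without the replicate block the counts were 109, 69 and 0 (limma, 1334 of the last kind at an unadjusted p under 0.05), and in the whole-count fit 138 and 66. The call of uc007mjq.2 was lost there (limma, adjusted p = 0.285), and those of the other named transcripts were kept.

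In the whole-count fit (275 rising and 191 falling, with its alternatives chosen after seeing the data) edgeR gave 124 and 84, DESeq2 106 falling, a mean of at least 5 CPM 162 rising, only the 8 PSD95 inputs 180 rising, and the described replicate 2 states 150 and 76. Leaving out 1 replicate gave 46 to 266 rising and 19 to 243 falling. The 1 whole-count transcript whose response differed from that with Pan became 8 without quality weights, 2 without the 3 libraries with over 50% of reads in 1 transcript, 0 to 46 on leaving out 1 replicate, and 0 in edgeR, in DESeq2, with a mean of at least 5 CPM, without the replicate block and with the described replicate 2 states (201, 235, 268, 100 and 190 at an unadjusted p under 0.05). Transcripts called with both constructs, 142 rising and 91 falling over all transcripts, became 2 to 26 and 1 to 23 on leaving out 1 replicate.

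The mean shift of transcripts under 1000 nt ranged from -0.00637 (without replicate 1, the 1 reversal) to 0.0833 on leaving out 1 replicate. That of transcripts of 8000 nt or more ranged from -0.118 to -0.043, and was -0.217 with whole counts only. Of 64 values of named transcripts under alternatives, 0 reversed and 19 lost the call. For each result where a setting changed the count, the cause was not tested. Among the PSD95 inputs depth outside uc009sgd.1 was lowest in KCl replicate 3 (about 1858000 reads), and among the 16 inputs fitted in KCl replicate 4 of Pan (1045000 reads), which had the highest quality weight, 2.24.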
